A study of Mus musculus with 6 samples.

Results

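The 10 genes described here encode the subunits of the hypoxia-inducible factors (HIF) and the proteins that sense oxygen for them. They were taken by symbol from a table of 48440 genes, as Hif1a, Epas1, Hif3a, Arnt, Arnt2, Egln1, Egln2, Egln3, Vhl and Hif1an, and all 10 were among the 15257 genes that passed the filter on low counts and were tested. The libraries came from subcutaneous tissue of BALB/c nude mice that surrounded bone marrow mesenchymal stem cell-engineered cartilage (BEC) made from rabbit cells. By the study's methods, samples were harvested with entangled mouse tissue, so rabbit RNA may also have entered the libraries, which was not tested. The BEC had been wrapped in an electrospun membrane of polycaprolactone (PCL) and collagen that held either no axitinib or axitinib at 3% of the weight of its polymers, and the tissue was taken at 12 weeks. Axitinib is an inhibitor of the receptors for vascular endothelial growth factor (VEGF), and the comparison asks what its release changed in the host tissue. There were 3 samples of the 0%-Axitinib group and 3 of the 3%-Axitinib group. The labels call the former untreated, and they were read as the 0%-Axitinib group because only membranes with 0% or 3% axitinib are described for the sequenced tissue. Each mouse carried a pair of constructs of its group and the mouse of a sample is not given, so n counts samples and p-values measure the spread between these samples. Nude mice are a strain without a thymus, and Cd3e, a gene of T cells, measured 0.26, 2.10 and 23.3 CPM in the 0%-Axitinib samples against 0.22, 1.18 and 0.12 CPM in the 3%-Axitinib samples. The labels do not give the age of the mice, which were male and whose age at purchase is given by the study.

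HIF is a pair of proteins, an alpha subunit that oxygen controls and a beta subunit that is always present. While oxygen is plentiful, prolyl hydroxylases mark the alpha subunit, the von Hippel-Lindau protein binds the mark, and the subunit is degraded, while an asparaginyl hydroxylase blocks its contact with coactivators. When oxygen falls these enzymes slow down, and the alpha subunit collects and switches on genes of blood vessel growth and glycolysis. Since this control acts largely on the protein, the mRNA levels given here do not measure HIF activity.

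Reads on genes numbered 17761968, 16716411 and 18005908 in replicates 1, 2 and 3 of the 0%-Axitinib group and 9225518, 11686084 and 18403795 in those of the 3%-Axitinib group. A count of 3 corresponded to between 0.157 and 0.330 CPM, and the lowest count of any of the 10 genes in a sample was 35, for Hif3a. CPM are read counts scaled to library size with TMM factors. Some libraries stood apart in the cells they held. By mean over all samples, Acta1, the actin of skeletal muscle, led the list of 18 skeletal muscle genes. The list summed to 170, 11.5 and 20.2 CPM in the 0%-Axitinib group and to 16937, 28.1 and 9544 CPM in the 3%-Axitinib group. Replicates 1 and 3 of the 3%-Axitinib group were thus rich in muscle RNA, and its replicate 2 was not. The summed level of 7 erythroid genes was 446, 394 and 22486 CPM against 169, 381 and 534 CPM, with Hbb-bs, a beta globin, leading, and that of 8 lymphocyte genes was 10.3, 23.9 and 370 CPM against 4.18, 6.38 and 1.74 CPM, with Cd79a leading. Replicate 3 of the 0%-Axitinib group stood apart in both. Keratinocyte genes (8, led by Krt1) summed to 930 CPM in replicate 2 of the 0%-Axitinib group and to between 6.08 and 11.6 CPM in the other samples.

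Of the 10 genes, 4 met the study's criterion, which asks for a 1.5-fold change or more and a P-value no larger than 0.05, read here as unadjusted and applied to edgeR's test. Hif1a and Epas1 were lower in the 3%-Axitinib group, and Hif3a and Egln2 were higher. Arnt, Arnt2, Egln1, Egln3, Vhl and Hif1an did not meet it. Across all tested genes, 21.2% met the criterion, 11.7% as lower and 9.54% as higher. The same 4 genes were those whose groups did not overlap, against 31.3% of all tested genes, 16.6% lower and 14.7% higher. With 10 genes, these counts set nothing apart from the other genes of the table. With Benjamini-Hochberg adjustment across the table, edgeR's quasi-likelihood test left 0 of the 10 genes at an adjusted p of at most 0.05, as against 0.00655% of all tested genes (1 gene). With an unadjusted p of at most 0.05 there were 4 of the 10, against 23.5% of all tested genes. DESeq2's Wald test gave 2 with an adjusted p of at most 0.05, Hif3a (adjusted p = 0.0197) and Egln2 (adjusted p = 0.0483), against 12.8% of all tested genes.

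**Figure D1:**
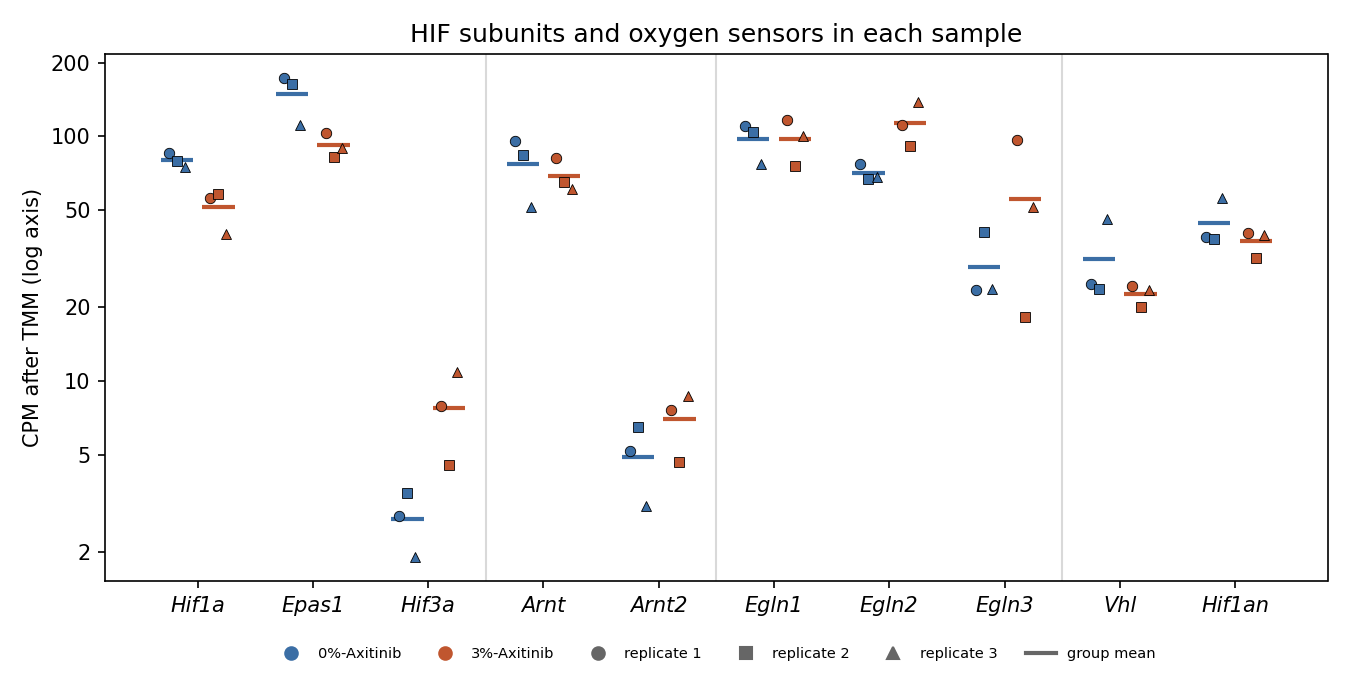
CPM of each gene (log axis) in the 3 samples of the 0%-Axitinib group (blue) and the 3 of the 3%-Axitinib group (orange), with symbols for the replicates, horizontal bars for group means, and vertical lines between alpha subunits, beta subunits, prolyl hydroxylases and the pair of Vhl and Hif1an. The groups did not overlap for Hif1a, Epas1, Hif3a and Egln2, and overlapped for the other 6 genes.

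Hif1a encodes the alpha subunit found in most cells. Its level was 85.3, 79.0 and 74.5 CPM in replicates 1, 2 and 3 of the 0%-Axitinib group and 56.1, 58.0 and 40.0 CPM in those of the 3%-Axitinib group. All 3%-Axitinib samples lay below all 0%-Axitinib samples, and replicate 3 was the lowest. Group means were 79.6 ± 5.41 and 51.4 ± 9.93 CPM (SD, n = 3 each). On the log2 scale the difference was -0.63 (SE 0.20, 95% interval -1.11 to -0.16, adjusted p = 0.138 by edgeR's quasi-likelihood test). The call was lost without replicate 1 of the 0%-Axitinib group (log2 fold change -0.58), without replicate 3 of the 3%-Axitinib group (-0.48) and with the mean of the skeletal muscle genes as a covariate (-0.54). In a bulk sample, fewer cells of a type and less RNA of the gene per cell cannot be told apart.

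Epas1 encodes HIF-2 alpha, which endothelial cells express strongly. It measured 173, 163 and 111 CPM in the 0%-Axitinib group, and the 3%-Axitinib samples had 103, 82.2 and 89.3 CPM. The groups did not overlap, although replicate 3 of the 0%-Axitinib group came close to replicate 1 of the 3%-Axitinib group. Group means were 149 ± 33.5 and 91.7 ± 10.8 CPM (SD, n = 3 each), and the log2 fold change was -0.70 (SE 0.24, 95% interval -1.26 to -0.14, adjusted p = 0.15 by edgeR's quasi-likelihood test). Without replicate 3 of the 0%-Axitinib group, the library rich in erythroid and lymphocyte RNA, the log2 fold change was -0.88 and the adjusted p from edgeR was 0.0421. The criterion was not met without replicate 1 (log2 fold change -0.58) or replicate 2 (-0.64) of the 0%-Axitinib group, or without replicate 2 (-0.63) or replicate 3 (-0.69) of the 3%-Axitinib group.

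The sum of the endothelial markers was lower in the 3%-Axitinib group, as Epas1 was. Within each group, the samples were not in the same order for these markers as for Epas1. Their summed level over 14 genes was 1496, 957 and 1448 CPM in the 0%-Axitinib group and 500, 727 and 768 CPM in the 3%-Axitinib group. Of the 14, 11 met the criterion as lower, against 11.7% of all tested genes, and none was at 0 in all samples. Plvap had the highest mean over all samples, while Pecam1 led in the 0%-Axitinib group and Eng in the 3%-Axitinib group. The ratio of Epas1 to this sum was 0.116, 0.171 and 0.0765 in the 0%-Axitinib samples and 0.207, 0.113 and 0.116 in the 3%-Axitinib samples, so it overlapped between the groups. Against Cdh5 alone, the cadherin of endothelial junctions, the ratio of Epas1 was 1.14, 1.39 and 0.769 in the 0%-Axitinib group and 6.72, 3.19 and 2.31 in the 3%-Axitinib group. This ratio was higher in every 3%-Axitinib sample, but Cdh5, chosen after the values were seen, was among the markers with the largest decrease (log2 fold change -2.37). Other genes of the list had smaller differences than Epas1, with log2 fold changes of -0.64 for Vwf, -0.39 for Plvap and -0.01 for Eng, and these 3 did not meet the criterion. The part of endothelial cell number in the level of Epas1 was not tested.

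Hif3a encodes the third alpha subunit, some isoforms of which hold back the others, and gene counts do not tell its isoforms apart. Its level was low in all libraries, with 2.82, 3.50 and 1.90 CPM in the 0%-Axitinib group (54, 60 and 35 reads) and 7.92, 4.56 and 10.9 CPM in the 3%-Axitinib group (72, 50 and 188 reads). Replicate 3 of the 3%-Axitinib group was the highest and replicate 2 lay just above the 0%-Axitinib samples. Group means were 2.74 ± 0.80 and 7.79 ± 3.17 CPM (SD, n = 3 each), and the log2 fold change was 1.51 (SE 0.44, 95% interval 0.47 to 2.55, adjusted p = 0.126 by edgeR's quasi-likelihood test). Of the 10 genes it had the largest fold change, and it met the criterion with every sample left out except replicate 3 of the 3%-Axitinib group (log2 fold change 1.18).

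Within the 3%-Axitinib group, Hif3a was higher in replicates 1 and 3, the libraries rich in muscle RNA. With the muscle covariate, its log2 fold change was 0.90 and no longer met the criterion (adjusted p = 0.552 in edgeR). Per kilobase of exon, Hif3a made up 0.917%, 1.21% and 0.866% of the summed level of the 3 alpha subunits in the 0%-Axitinib samples and 4.04%, 2.69% and 6.65% in the 3%-Axitinib samples. Its share was thus larger in each 3%-Axitinib sample, but Epas1 (65.2% ± 4.10 and 62.4% ± 3.73, SD, n = 3 each) and Hif1a (33.8% ± 4.22 and 33.1% ± 5.64, SD, n = 3 each) made up nearly all of the alpha mRNA in both groups. Counting error of the read share of Hif3a was at most 1.07 percentage points to either side (95% Wilson interval). Hif3a was called higher and Hif1a and Epas1 lower, so the larger share of Hif3a restates those calls.

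The beta subunits did not meet the criterion in any fit. Arnt, which pairs with all alpha subunits, measured 95.3, 83.8 and 51.4 CPM in the 0%-Axitinib group and 81.2, 65.2 and 60.9 CPM in the 3%-Axitinib group. The difference was -0.15 on the log2 scale (95% interval -0.79 to 0.48). Arnt2, its relative known mainly from neurons, measured 5.17, 6.47 and 3.10 CPM and 7.59, 4.65 and 8.68 CPM, a log2 fold change of 0.51 (95% interval -0.46 to 1.47). Both overlapped between the groups, and both were lowest in replicate 3 of the 0%-Axitinib group. The summed level of Hif1a and Epas1 per kilobase, divided by that of Arnt and Arnt2, was 3.61, 3.77 and 4.76 in the 0%-Axitinib samples and 2.52, 2.80 and 2.61 in the 3%-Axitinib samples. Per kilobase, Hif1a and Epas1 together were above the beta subunits in all 6 samples, by less in the 3%-Axitinib group. Hif1a and Epas1 both met the criterion as lower, so the smaller ratio restates those calls.

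Of the 3 prolyl hydroxylases, Egln2 alone met the criterion, and differences between their fold changes were not tested. Egln1 encodes PHD2, the main oxygen sensor of most tissues, and measured 111, 104 and 77.0 CPM in the 0%-Axitinib group and 116, 75.5 and 100.5 CPM in the 3%-Axitinib group. The samples overlapped across the whole range, with a log2 fold change of 0.00 and a 95% interval of -0.57 to 0.57. This interval includes changes of up to about 1.5-fold either way. The sign of so small a log2 fold change varied with the scaling.

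Egln2 encodes PHD1 and measured 76.9, 67.0 and 68.4 CPM in the 0%-Axitinib group, while the 3%-Axitinib samples had 111, 90.9 and 138 CPM. All 3%-Axitinib samples were above all 0%-Axitinib samples, with replicate 3 the highest and replicate 2 the lowest. Group means were 70.8 ± 5.37 and 113 ± 23.7 CPM (SD, n = 3 each), and the log2 fold change was 0.68 (SE 0.21, 95% interval 0.18 to 1.18, adjusted p = 0.135 by edgeR's quasi-likelihood test). The criterion was not met without replicate 2 of the 0%-Axitinib group (log2 fold change 0.64), without replicate 3 of the 3%-Axitinib group (0.51) or with the muscle covariate (0.40). It was also not met when libraries were scaled by total counts, which moved the median log2 fold change of all genes from -0.03 to -0.16 and that of Egln2 to 0.55. With that scaling, 28.8% of all genes that met the criterion were higher in the 3%-Axitinib group, against 44.9% with TMM.

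Egln3 encodes PHD3, itself a well-known HIF target. It measured 23.5, 40.6 and 23.7 CPM in the 0%-Axitinib group and 96.2, 18.2 and 51.4 CPM in the 3%-Axitinib group. The highest and the lowest of the 6 values were both from the 3%-Axitinib group, the highest in the library with the most muscle RNA and the lowest in the muscle-poor replicate 2. The log2 fold change was 0.92 (95% interval -0.41 to 2.25, adjusted p = 0.355 by edgeR's quasi-likelihood test). Without replicate 2 of the 3%-Axitinib group Egln3 met the criterion as higher (log2 fold change 1.33, adjusted p = 0.2 in edgeR). Without replicate 1 the log2 fold change was 0.26, and with the muscle covariate it was -0.44.

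Within the prolyl hydroxylases, Egln1 made up 45.9%, 42.5% and 39.1% of their summed level per kilobase in the 0%-Axitinib samples and 29.9%, 34.8% and 28.9% in the 3%-Axitinib samples (counting error of the read share at most 2.14 percentage points). Its share was smaller in every 3%-Axitinib sample. The shares of Egln2 (40.2% ± 4.81 and 47.2% ± 9.19, SD, n = 3 each) and Egln3 (17.3% ± 4.70 and 21.6% ± 11.1, SD, n = 3 each) overlapped between the groups. The level of Egln2 per kilobase was 0.894, 0.826 and 1.14 times that of Egln1 in the 0%-Axitinib group and 1.23, 1.55 and 1.77 times in the 3%-Axitinib group, again with no overlap. Egln1 had a log2 fold change of 0.00, so this ratio restates the call of Egln2. The smaller share of Egln1 draws on the same values and is not a separate result. The 3 hydroxylases together, per kilobase, measured 1.48, 1.60 and 1.69 times the sum of Hif1a and Epas1 in the 0%-Axitinib samples and 3.86, 2.46 and 4.25 times in the 3%-Axitinib samples. This ratio was higher in every 3%-Axitinib sample and was chosen with the values of its genes known. It sets Egln2, called higher, over Hif1a and Epas1, called lower, so its separation restates those calls.

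**Figure D2:**
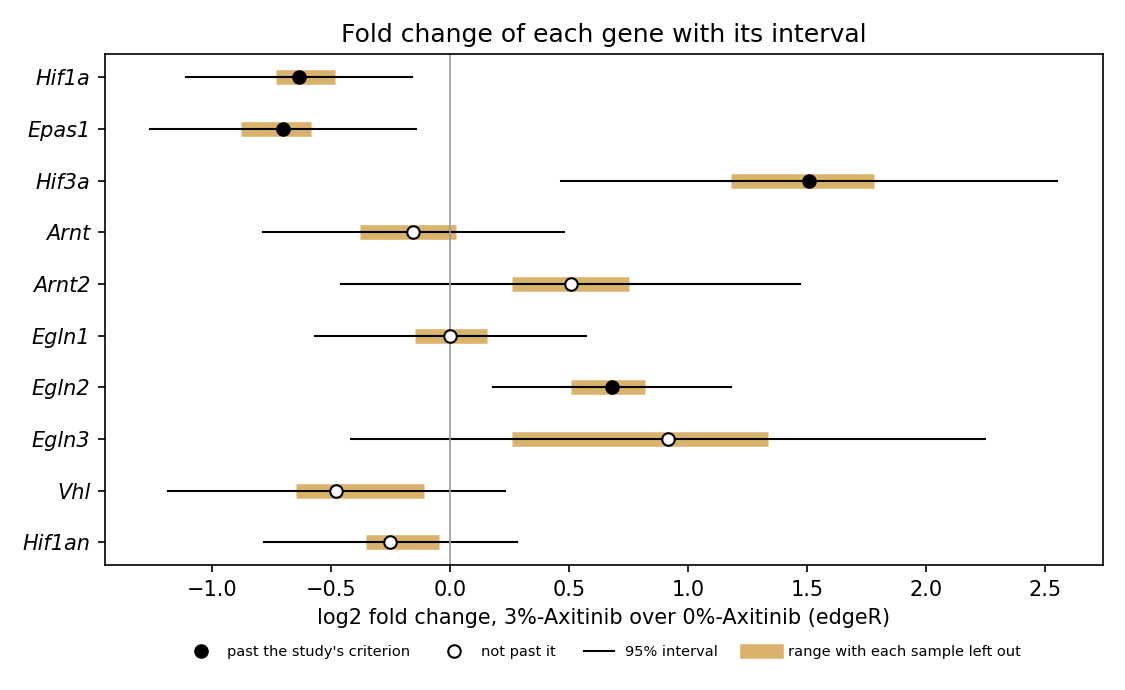
Log2 fold change of each gene in the 3%-Axitinib group over the 0%-Axitinib group (points, filled where the study's criterion was met), with its 95% interval (lines) and the range of the value when each sample was left out in turn (bars). The intervals of Hif1a, Epas1, Hif3a and Egln2 did not reach 0, and leaving out a sample moved Egln3 over the widest range, from 0.26 to 1.33.

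Vhl, the receptor of the ubiquitin ligase that takes up hydroxylated alpha subunits, measured 25.0, 23.8 and 46.0 CPM in the 0%-Axitinib group and 24.4, 20.0 and 23.6 CPM in the 3%-Axitinib group. Hif1an, which encodes the asparaginyl hydroxylase FIH, measured 38.6, 37.9 and 56.1 CPM and 40.4, 31.7 and 39.5 CPM. In both genes a single library, replicate 3 of the 0%-Axitinib group, was high and the other 5 lay close together. The log2 fold changes were -0.48 for Vhl (95% interval -1.18 to 0.23) and -0.25 for Hif1an (95% interval -0.78 to 0.28), and without that library they were -0.11 and -0.04.

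Levels of different genes were set against each other as CPM per kilobase of merged exons. In the 0%-Axitinib group the order was Egln1 (27.0 ± 4.96), Epas1 (26.6 ± 5.99), Egln2 (25.3 ± 1.92), Hif1a (13.5 ± 0.92), Egln3 (11.0 ± 3.70), Vhl (10.5 ± 4.17), Arnt (9.59 ± 2.84), Hif1an (6.69 ± 1.56), Arnt2 (0.64 ± 0.22) and Hif3a (0.41 ± 0.12, all SD, n = 3). Neighbours in this order overlapped in their samples except at the steps from Egln2 to Hif1a and from Hif1an to Arnt2. In the 3%-Axitinib group Egln2 stood at the top (40.5 ± 8.47), ahead of Egln1 (27.1 ± 5.70), Egln3 (20.8 ± 14.7), Epas1 (16.4 ± 1.94), Hif1a (8.71 ± 1.68), Arnt (8.63 ± 1.33), Vhl (7.57 ± 0.78), Hif1an (5.63 ± 0.72), Hif3a (1.16 ± 0.47) and Arnt2 (0.91 ± 0.27, all SD, n = 3). Here the neighbours that did not overlap were Egln2 and Egln1, Epas1 and Hif1a, Vhl and Hif1an, and Hif1an and Hif3a. By group means, Epas1 thus went from the second to the fourth place and Egln2 from the third to the first. The samples of Epas1 overlapped those of Egln1 and Egln2 in the 0%-Axitinib group and those of Egln3 in the 3%-Axitinib group.

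For each gene that met the criterion, the 3 tested genes with the most similar profile over the 6 samples were found by the root mean square distance of centred log2 CPM. For Hif1a these were Zhx1 (0.06), Bmi1 (0.06) and Tmed8 (0.08). For Epas1 they were Rps6ka3 (0.08), Bicd2 (0.08) and Stk35 (0.10). The closest to Egln2 were Zfp358 (0.07), Selenbp1 (0.07) and Setd6 (0.08), while those of Hif3a were further away, with Gm10369 (0.13), Gm13394 (0.16) and Mmp11 (0.22). Mmp11, a matrix metalloproteinase, measured 43.2, 50.4 and 44.8 CPM in the 0%-Axitinib group and 143, 75.6 and 183 CPM in the 3%-Axitinib group.

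Other genes of the pathway were counted in lists. Of 10 genes of the VHL ligase and its partners, Tceb2 met the criterion as higher and none as lower, where 9.54% and 11.7% of all tested genes did (list median 0.02 on the log2 scale, against -0.03 over all tested genes). Tceb2 encodes elongin B, which joins VHL to the cullin of the ligase, was the most abundant gene of the list and measured 107, 97.3 and 159 CPM in the 0%-Axitinib group and 214, 253 and 233 CPM in the 3%-Axitinib group. Every 3%-Axitinib sample was above every 0%-Axitinib sample (log2 fold change 0.95, SE 0.25, adjusted p = 0.11 in edgeR), and the criterion was met with each sample left out. Elongin C (Tceb1) and Cul2 did not meet it, with log2 fold changes of -0.13 and -0.39.

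Of 12 HIF cofactors and chaperones, 1 met the criterion, as lower, against 11.7% of all tested genes (median log2 fold change -0.17). It was Ep300, the acetyltransferase p300 that HIF alpha recruits, at 68.2, 74.2 and 88.6 CPM in the 0%-Axitinib group against 45.5, 41.7 and 42.5 CPM in the 3%-Axitinib group. The samples of each group lay close together and apart from the other group (log2 fold change -0.83, SE 0.17, adjusted p = 0.0965 in edgeR). Another 3 genes of the list had groups that did not overlap without meeting the criterion, Crebbp (log2 fold change -0.38) and Hsp90aa1 (-0.47) as lower and Gnb2l1 (0.53) as higher, where 16.6% of all tested genes did not overlap as lower and 14.7% as higher. The most abundant gene was the chaperone Hsp90ab1, with a log2 fold change of 0.01.

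Of 23 HIF target genes, 22 were tested, 4 met the criterion as higher and 0 as lower, against 9.54% and 11.7% of all tested genes. The median of their log2 fold changes was 0.38. Epo, which encodes erythropoietin, had no read in any library. Vegfa, the VEGF gene itself, measured 69.2, 65.3 and 52.0 CPM in the 0%-Axitinib group and 177, 117 and 106 CPM in the 3%-Axitinib group (log2 fold change 1.10, SE 0.26, adjusted p = 0.0979 in edgeR). Ddit4, which restrains mTORC1, measured 48.7, 42.7 and 47.3 CPM in the 0%-Axitinib group against 193, 75.3 and 150 CPM (log2 fold change 1.59, SE 0.34, adjusted p = 0.0972 in edgeR). In both genes each 3%-Axitinib sample was above each 0%-Axitinib sample, and the criterion was met with each sample left out. Ddit4 was highest in the muscle-rich replicates 1 and 3, and with the muscle covariate its log2 fold change was 0.82, which met the criterion.

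Bnip3, a mitophagy receptor, also met the criterion, at 28.9, 31.7 and 15.9 CPM against 95.7, 30.6 and 49.3 CPM, but its groups overlapped. The log2 fold change was 1.20 (SE 0.46, adjusted p = 0.18 in edgeR), and it was 0.65 without replicate 1 of the 3%-Axitinib group and 0.34 with the muscle covariate, where the criterion was not met. Nor was it met without replicate 1 (log2 fold change 1.29) or replicate 3 (0.94) of the 0%-Axitinib group, without replicate 3 of the 3%-Axitinib group (1.30), or with total counts (1.08). The most abundant target gene, Ldha of glycolysis, measured 580, 735 and 780 CPM and 921, 583 and 961 CPM and did not meet the criterion (log2 fold change 0.23). Over all 71 tested genes of the 5 pathway lists, 8 met the criterion as higher and 4 as lower, and the median was 0.09 on the log2 scale. The share called in either direction was not above the 21.2% of all tested genes.

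Other cell types also differed between the libraries. The summed level of 12 cartilage genes, led by Comp, was 327, 211 and 229 CPM in the 0%-Axitinib group, against 351, 1605 and 689 CPM in the 3%-Axitinib group, and 6 of 10 tested genes met the criterion as higher. The 10 fibroblast genes, led by Col1a1, summed to between 11006 and 27851 CPM and between 24534 and 71771 CPM, with 3 higher. The 10 macrophage genes, led by Cd68, summed to between 3000 and 5158 CPM and between 3795 and 5503 CPM, with 0 called. Fibroblast and macrophage sums thus overlapped between the groups, while the cartilage sum was higher in each 3%-Axitinib sample. The 8 adipocyte genes, led by Fabp4, summed to between 805 and 952 CPM and between 470 and 722 CPM, with 2 lower, and the 8 genes of smooth muscle and pericytes, led by Pdgfrb, to between 510 and 915 CPM and between 484 and 755 CPM, with 2 lower. Of the other lists, 15 of 17 tested muscle genes met the criterion as higher, and 6 of 6 lymphocyte, 5 of 5 erythroid and 2 of 4 keratinocyte genes as lower. Of all tested genes, 9.54% met it as higher and 11.7% as lower. The groups did not overlap for 2 of the muscle, 4 of the lymphocyte, 2 of the erythroid and 0 of the keratinocyte genes. Of all tested genes, 14.7% did not overlap as higher and 16.6% as lower. The muscle, erythroid and keratinocyte sums overlapped between the groups. None of the genes of these lists was at 0 in all samples. Their part in the levels of the HIF genes was not tested, except for muscle through the covariate, with which Epas1 alone of the 10 genes met the criterion (log2 fold change -0.89).

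By the GENCODE annotation of GRCm38, the genes lie on 7 chromosomes as protein-coding genes: Hif1a at chr12:73901375-73947530, Epas1 at chr17:86753700-86833410, Hif3a at chr7:17031507-17062427, Arnt at chr3:95434388-95497240, Arnt2 at chr7:84246278-84410176, Egln1 at chr8:124908587-124949324, Egln2 at chr7:27158658-27166802, Egln3 at chr12:54178981-54203860, Vhl at chr6:113623959-113631633 and Hif1an at chr19:44562850-44576274. Hif3a, Arnt2 and Egln2 share chromosome 7. Whether reads were counted by strand is not given in the sources used here, so reads of a gene and of an antisense partner cannot be told apart. The antisense gene Gm15283 covers 5.6% of the exon bases of Hif1a and had at most 0.467 CPM, and Gm49321, on the same strand as Hif1a, covers 2.51%. Arnt2 shares 2.78% of its exon bases with the antisense gene Gm30873, and Egln2 shares 11 bases with Cyp2t4 on the other strand, which had at most 0.991 CPM. Of the pathway genes named, Bnip3 shares 22.3% of its exon bases with the antisense gene Gm45507, so its level is uncertain.

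Promoter sequences from RefSeq (GRCm38.p6) are shown for Hif1a, Hif3a and Egln2, which met the criterion, and for Egln3, a known HIF target that did not, because hypoxia response elements are the letters through which HIF acts on genes, its own circuit included. Each window of the table runs from 250 bases before the start of the transcript to 50 after it. The cores ACGTG and GCGTG were searched on both strands, and CACGTG counts as 2 overlapping cores since it reads the same on both. Of 32851 windows of 300 bases, 43.8% held at least 1 core and 20.6% at least 2. Windows were found for 9 of the 10 genes, and Epas1 had no entry. A core was present in 6 of the 9, Hif1a (3 cores), Hif3a (2), Arnt (1), Egln1 (2), Egln2 (6 in 1 window and 1 in its other window) and Egln3 (1), and in none of the windows of Arnt2, Vhl and Hif1an. A core is a match of letters and not a measured site. The 250 bases before the start are printed 5′ to 3′ on the strand of the gene with the cores in capitals, for Hif1a (chr12:73907617-73907866, plus strand), Hif3a (chr7:17062428-17062677, minus strand), Egln2 (chr7:27166803-27167052, minus strand) and Egln3 (chr12:54203875-54204124, minus strand).
Hif1a: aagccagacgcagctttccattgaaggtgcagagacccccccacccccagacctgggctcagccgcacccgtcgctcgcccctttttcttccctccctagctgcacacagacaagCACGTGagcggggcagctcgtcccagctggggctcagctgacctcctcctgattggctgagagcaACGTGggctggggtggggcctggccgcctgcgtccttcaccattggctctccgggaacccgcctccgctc
Hif3a: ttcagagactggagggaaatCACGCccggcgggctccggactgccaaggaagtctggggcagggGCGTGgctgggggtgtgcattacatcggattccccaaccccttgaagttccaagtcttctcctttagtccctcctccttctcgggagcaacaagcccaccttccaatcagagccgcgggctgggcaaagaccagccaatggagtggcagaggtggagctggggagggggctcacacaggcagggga
Egln2: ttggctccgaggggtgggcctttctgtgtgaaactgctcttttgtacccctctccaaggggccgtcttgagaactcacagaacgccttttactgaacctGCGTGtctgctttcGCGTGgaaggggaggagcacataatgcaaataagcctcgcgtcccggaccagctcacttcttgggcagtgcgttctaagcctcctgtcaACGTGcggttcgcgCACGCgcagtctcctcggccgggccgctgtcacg
Egln3: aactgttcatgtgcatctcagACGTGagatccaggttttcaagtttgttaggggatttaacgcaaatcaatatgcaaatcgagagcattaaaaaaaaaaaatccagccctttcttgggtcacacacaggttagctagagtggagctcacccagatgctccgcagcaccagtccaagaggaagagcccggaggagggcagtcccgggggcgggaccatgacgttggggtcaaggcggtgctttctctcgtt
Counted back from the start, where the base before it is -1, the cores of Hif1a begin at -135, -134 and -70, and those of Hif3a at -230 and -186. In Egln2, 4 cores lie within the printed bases, at -151, -137, -48 and -34, and the overlapping pair that begins at -4 and -3 crosses the start and is not in capitals. The core of Egln3 begins at -229. By GENCODE, the printed bases of Hif3a, Egln2 and Egln3 lie just before the gene, and those of Hif1a lie in an intron of a longer transcript that starts further upstream. Hif1a, which was lower in the 3%-Axitinib group, and Hif3a and Egln2, which were higher, all held at least 2 cores, and Egln1, which did not meet the criterion, held 2 as well.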

How the data were processed

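The authors enriched poly(A) RNA, filtered the reads with fastp, mapped them to mm10 (STAR 2.5.2b in the submitters' processing notes) and deposited unnormalized counts per gene symbol for 6 libraries. The annotation release and the strand setting are not given in the sources used here. Rows of reads assigned to no gene stayed out of library sizes and tests. They were unmapped (3.84% to 48.4% of a library), multimapping (2.71% to 6.65%), outside genes (3.17% to 6.14%) and ambiguous (3.55% to 5.74%).

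Counts were scaled with TMM and filtered with filterByExpr (minimum count 10, minimum total 15), and 3%-Axitinib was compared with 0%-Axitinib by the quasi-likelihood test of edgeR 4.0.16 under R 4.3.3 with Benjamini-Hochberg adjustment over 15257 genes. The 95% intervals come from the same fit and cover the spread between samples. Log2 CPM for profile distances used a prior count of 2. No pair of libraries of the same group agreed within counting noise. The floor of 3 counts covers counting error only. The fit was tested on simulated data.

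Named genes are the 10 HIF genes, the pathway genes that met the criterion, the most abundant gene of each list, and the 3 nearest profiles among genes with a mean of at least 1 CPM. The most abundant or leading gene of a list is the one with the highest mean CPM over all samples, and it need not lead in each group or sample. Other genes were named after their values were seen. The values of 1 target gene that met the criterion are not reported here. The 10 genes and the lists were chosen with earlier results of these data known, and the lists were written from general knowledge. Exon lengths and positions are from GENCODE, promoters from RefSeq. Alternatives covered scaling, filter, threshold, DESeq2 1.42.0, limma-voom (limma 3.58.1), a replicate block, a muscle covariate and each sample left out. Protein sequences were not analysed here.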

Additional observations from a re-analysis of the deposited data

Results flagged for a closer look

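The share of unmapped reads, which enters no comparison of the HIF genes, was above the level of the control samples. In replicates 1, 2 and 3 of the 3%-Axitinib group it was 48.4%, 29.2% and 16.8% (mean 31.5% ± 15.9, SD, n = 3), and in those of the 0%-Axitinib group it was 5.47%, 3.84% and 14.9% (mean 8.08% ± 5.99, SD, n = 3), with no overlap. The implanted cells were from rabbits, and the species of reads was not analysed here, so how many reads on the 10 genes came from rabbit RNA was not tested.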

How the results depend on the processing

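Hif1a, Epas1, Hif3a and Egln2 kept their direction in every alternative run, and Arnt2, Vhl and Hif1an kept theirs. The number of the 10 genes that met the criterion was 4, and it was 1 with the muscle covariate (Epas1), 1 at a fold of at least 2 (Hif3a), and 0 to 4 with each sample left out (0 without 3%-Axitinib replicate 3, 2 without 0%-Axitinib replicate 1 or replicate 2). Over all tested genes, 3241 met it, 1752 with the muscle covariate and 1951 at a fold of at least 2, where 6 of the 12 pathway genes were left. An adjusted p of at most 0.05 was reached by 1 gene in edgeR, 1960 in DESeq2's Wald test, 2 in limma-voom, 15 without a filter, 0 with the muscle covariate, and 0 to 1252 with each sample left out. Of the 10 genes, 2 had such a p in DESeq2's Wald test and 0 to 1 with each sample left out. The log2 fold change of Egln1, 0.0023, turned negative with DESeq2 size factors (-0.0014), total counts (-0.13), DESeq2's Wald test (-0.0015), limma-voom (-0.0021), no filter (-0.0257), at least 10 counts in every sample (-0.0081) and the muscle covariate (-0.35), and ran from -0.14 to 0.15 with each sample left out. That of Egln3 was -0.44 with the muscle covariate, and that of Arnt ran from -0.379 to 0.0276 with each sample left out. The cause was not tested. With replicate numbers as a replicate block, the same 4 genes met the criterion, Egln1 was at -0.0017 and 2 genes of all had an adjusted p of at most 0.05. Same-numbered samples correlated at 0.182, -0.115 and -0.174 in their deviations from the group means, and only replicate 1 correlated best with its own number. With 3 samples a group, these values cannot decide whether the numbers pair the samples. A prior count of 0.5 changed 1 of the 3 nearest profiles of Epas1 and none of the others. The prior count does not enter the level per length, so the ranks of that level could not change with it. With 35 to 188 reads per sample, counting error weighs most on Hif3a.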

Other observations

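Other enzymes that need oxygen and 2-oxoglutarate, or oxygen and iron, to work went in different directions. Of 19 such genes, 3 met the criterion as higher and 3 as lower, against 9.54% and 11.7% of all tested genes, and the list median was 0.14 on the log2 scale, against -0.03. P4htm, a prolyl hydroxylase of the endoplasmic reticulum membrane, measured 7.67, 4.08 and 6.03 CPM in the 0%-Axitinib group and 13.4, 16.6 and 16.3 CPM in the 3%-Axitinib group (log2 fold change 1.38, SE 0.31, adjusted p = 0.0972 in edgeR). P4ha2, a subunit of collagen prolyl hydroxylase, measured 52.1, 39.9 and 36.6 CPM and 69.5, 94.8 and 65.4 CPM (log2 fold change 0.84), and Plod1, a collagen lysyl hydroxylase, 134, 203 and 121 CPM and 276, 335 and 303 CPM (log2 fold change 1.00). In all 3 genes the 3%-Axitinib samples lay above the 0%-Axitinib samples. The most abundant gene of the list, Plod3, had a log2 fold change of 0.42 and did not meet the criterion. Of 10 fibroblast genes, 3 also met the criterion as higher, and the part of fibroblasts in these levels was not tested.

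The 3 lower genes act on chromatin. Tet3, a 5-methylcytosine dioxygenase, measured 69.8, 102 and 91.6 CPM in the 0%-Axitinib group and 31.5, 28.3 and 35.2 CPM in the 3%-Axitinib group (log2 fold change -1.47, SE 0.21, adjusted p = 0.0965 in edgeR), and met the criterion with each sample left out and with the muscle covariate. Kdm4c, a histone lysine demethylase, measured 19.2, 22.2 and 27.0 CPM and 12.2, 11.1 and 12.1 CPM (log2 fold change -0.95). Tet2 had a log2 fold change of -0.61 (adjusted p = 0.148 in edgeR), and the criterion was not met without replicate 2 of the 0%-Axitinib group (-0.54), without replicate 1 (-0.59) or replicate 3 (-0.53) of the 3%-Axitinib group, or with the muscle covariate (-0.41). In these 3 genes the groups did not overlap. Among 8 tested relatives of the HIF subunits with the same bHLH-PAS fold, 0 met the criterion in edgeR's test, at an unadjusted p as well, and 0 in DESeq2's Wald test. The most abundant, Clock, measured 42.3, 43.3 and 24.7 CPM and 30.5, 34.7 and 24.0 CPM.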
